A study of Mus musculus with 743 samples.

Results

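The 39 genes described here encode enzymes that make fatty acids, lengthen and desaturate them, and build ceramides, galactolipids, sphingomyelin and glycerolipids from them. They were chosen by name, as a list of the pathway, but with earlier results of these data known. Each was found by its Ensembl ID in a count table of 25700 genes. They were followed in single Schwann cells (SCs), the glia that ensheathe the axons of peripheral nerves, taken at postnatal day 1 from mouse sciatic nerve. The animals had a C57bl/6J background and carried 3 alleles in every sample: P0Cre, whose Cre acts in the SC lineage, ReYFP, a reporter that Cre switches on, and βAct-DsRed, which marks all cells red. There was no treatment and no second genotype, so all 743 wells form 1 group. Cells positive for eYFP were sorted 1 per well into 2 plates, and a separate pool of a male and a female mouse supplied each plate. The plate is therefore the replicate (n = 2), and the pools were not split into their animals.

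Sphingolipids begin with the joining of serine and a fatty acyl-CoA by serine palmitoyltransferase and pass through ceramide, to which ceramide synthases attach a second fatty acid. Myelin is rich in galactosylceramide and sulfatide, whose fatty acids are often very long and hydroxylated at the second carbon. SCs that have sorted an axon and are about to wrap it, called promyelinating SCs, are the stage at which the synthesis of such membrane is known to be switched on, while SCs that still divide belong to an earlier stage.

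Cells were placed in 3 classes by the level of 3 genes that are not on the list. Levels are given as CPM, in which every library is brought to the same total of reads. Cells with at least 50 CPM of Mki67 and Top2a together, both genes of dividing cells, were called cycling. Of the remaining cells, those with at least 50 CPM of Ncmap, which encodes a protein of noncompact myelin, were called promyelinating, and the rest are called other cells. Wells with at least 1500 detected genes were used, which left 621 cells of the 743. The promyelinating class held 59 cells on plate 1 and 60 on plate 2, the cycling class 53 and 57, and the other cells 175 and 217. Few cells lay near a limit, since 5 cells had between 25 and 50 CPM of Mki67 and Top2a together and 4 between 50 and 100 CPM, and for Ncmap in noncycling cells these numbers were 4 and 5.

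The classes bore the marks of their names. In the comparison of promyelinating with other cells, 8 of 13 promyelinating markers that the gate did not use were higher at an adjusted p under 0.05 and 0 were lower, among them Mbp, which encodes a major myelin protein. Mbp was at 8156 and 7925 CPM in promyelinating cells of plates 1 and 2 and at 1904 and 2421 CPM in other cells (log2 fold change 1.98, SE 0.19, adjusted p = 0.00184, edgeR). In cycling against other cells, 6 of 7 cycling markers were higher. Markers of other cells of the nerve were low: the 7 adipocyte markers summed to at most 0.901 CPM in any class and plate, with 6 or 7 of them without a read, the 5 endothelial markers to at most 2.91 CPM, and the 4 immune markers to between 2.77 and 20.7 CPM. The 4 fibroblast markers, of which 1 to 3 had no read, summed to 528 and 625 CPM in promyelinating, 842 and 1201 in cycling and 932 and 1036 in other cells. Col1a1 made up most of this, at 501 and 605, 842 and 1201, and 896 and 1025 CPM in the same order. It was read in at least 98.3% of cells of each class and plate. Pdgfra had no read in any sum, and Lum and Dcn reached at most 0.845 and 36.7 CPM. The 4 mural markers summed to between 24.8 and 56.8 CPM. Of these, Pdgfrb had no read in either cycling sum and was lower there than in other cells (adjusted p = 0.0107), with reads in 32.2% and 13.3% of promyelinating and 5.71% and 7.37% of other cells. The part of these markers in the results was not tested. The summed reads of a class and plate ranged from 45073128 to 172878954. Promyelinating cells had more detected genes, with medians of 3690 and 3550 against 2775 and 2819 in other cells and 3425 and 3477 in cycling cells.

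Promoter windows of 3 of the genes that were higher in promyelinating cells are shown first, to give the sequence at which their transcription starts. They are RefSeq windows of 300 bases that cross the start site, on GRCm38.p6, written 5′ to 3′ on the strand of the gene. Capitals mark matches, on either strand, to any of the motifs named after them. Elovl1 has 2 annotated starts, at chr4:118427843-118428142 and chr4:118429451-118429750 on the plus strand, Elovl7 lies at chr13:108214154-108214453 on the plus strand, and Ugt8a at chr3:125938603-125938902 on the minus strand.
Elovl1, upstream start: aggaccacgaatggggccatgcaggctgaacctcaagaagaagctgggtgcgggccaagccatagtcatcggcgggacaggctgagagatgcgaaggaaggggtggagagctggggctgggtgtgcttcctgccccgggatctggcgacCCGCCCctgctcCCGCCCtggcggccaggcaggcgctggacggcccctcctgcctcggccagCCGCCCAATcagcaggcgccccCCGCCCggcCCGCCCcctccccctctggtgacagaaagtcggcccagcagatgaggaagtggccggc
Elovl1, downstream start: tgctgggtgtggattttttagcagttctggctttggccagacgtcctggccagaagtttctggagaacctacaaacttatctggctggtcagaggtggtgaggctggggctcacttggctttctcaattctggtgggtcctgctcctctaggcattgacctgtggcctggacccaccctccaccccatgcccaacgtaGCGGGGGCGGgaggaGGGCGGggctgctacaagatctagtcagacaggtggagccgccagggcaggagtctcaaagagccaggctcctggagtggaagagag
Elovl7: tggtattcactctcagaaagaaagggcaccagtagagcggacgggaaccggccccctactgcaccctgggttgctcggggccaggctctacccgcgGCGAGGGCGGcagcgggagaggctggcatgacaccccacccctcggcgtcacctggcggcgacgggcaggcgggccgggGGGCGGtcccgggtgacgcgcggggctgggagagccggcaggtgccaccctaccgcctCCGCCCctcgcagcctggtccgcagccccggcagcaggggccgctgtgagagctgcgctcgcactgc
Ugt8a: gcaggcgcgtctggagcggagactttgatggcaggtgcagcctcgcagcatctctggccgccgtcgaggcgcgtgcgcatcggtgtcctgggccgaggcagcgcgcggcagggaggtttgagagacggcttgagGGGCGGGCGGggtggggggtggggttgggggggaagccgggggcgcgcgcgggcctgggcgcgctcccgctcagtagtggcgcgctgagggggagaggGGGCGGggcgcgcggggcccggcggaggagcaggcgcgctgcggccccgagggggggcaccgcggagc
Windows were found for 34 of the 39 genes and were missing for Fa2h, Scd1, Scd2, Fads1 and Dgat2. The first motif searched was the GC box, GGGCGG, which stood 5 times in the upstream and 2 times in the downstream window of Elovl1, 3 times in that of Elovl7 and 3 times in that of Ugt8a. It was found for 26 of the 34 listed genes (76.5%) and for 38.2% of the 27025 genes with a window. The site of the Egr family, GCGNGGGCG, which can overlap a GC box, stood once in the downstream window of Elovl1 and once in that of Elovl7. Over genes, it was found for 7 of the 34 listed genes (20.6%) and for 6.27% of all genes with a window. The sterol regulatory element, TCACNCCAC, was found for 1 of the 34, Acsl1, and for 1.44% of all genes. The core of Sox sites, ACAAAG, was found for 5 of the 34 (14.7%) and for 21% of all genes. The fifth motif, CCAAT, stood once in the upstream window of Elovl1 and was found for 20 of the 34 (58.8%) and for 41.1% of all genes. These matches are letters in a window and were not tested for binding.

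The summed level of the genes was higher in promyelinating cells than in the other 2 classes on both plates. Their reads together made up 6126 and 5950 CPM in promyelinating cells, 3002 and 3453 CPM in cycling cells and 3416 and 3774 CPM in other cells of plates 1 and 2. Elovl1 held a large part of the difference, and without it the sums were 4482 and 4164 CPM, 2826 and 3072 CPM, and 2947 and 3206 CPM. Of the 39 genes, 9 had a log2 fold change below 0 in promyelinating against other cells, as had 7054 of all 13289 genes tested. Most of the summed level came from the enzymes of desaturation and elongation, which held 4134 and 3917 CPM in promyelinating against 2157 and 2294 CPM in other cells. The enzymes that add head groups or hydroxylate sphingolipids held 611 and 638 CPM against 203 and 270 CPM. The enzymes of the sphingoid base and of ceramide held 996 and 1004 CPM against 789 and 977 CPM, a much smaller gap.

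**Figure D1:**
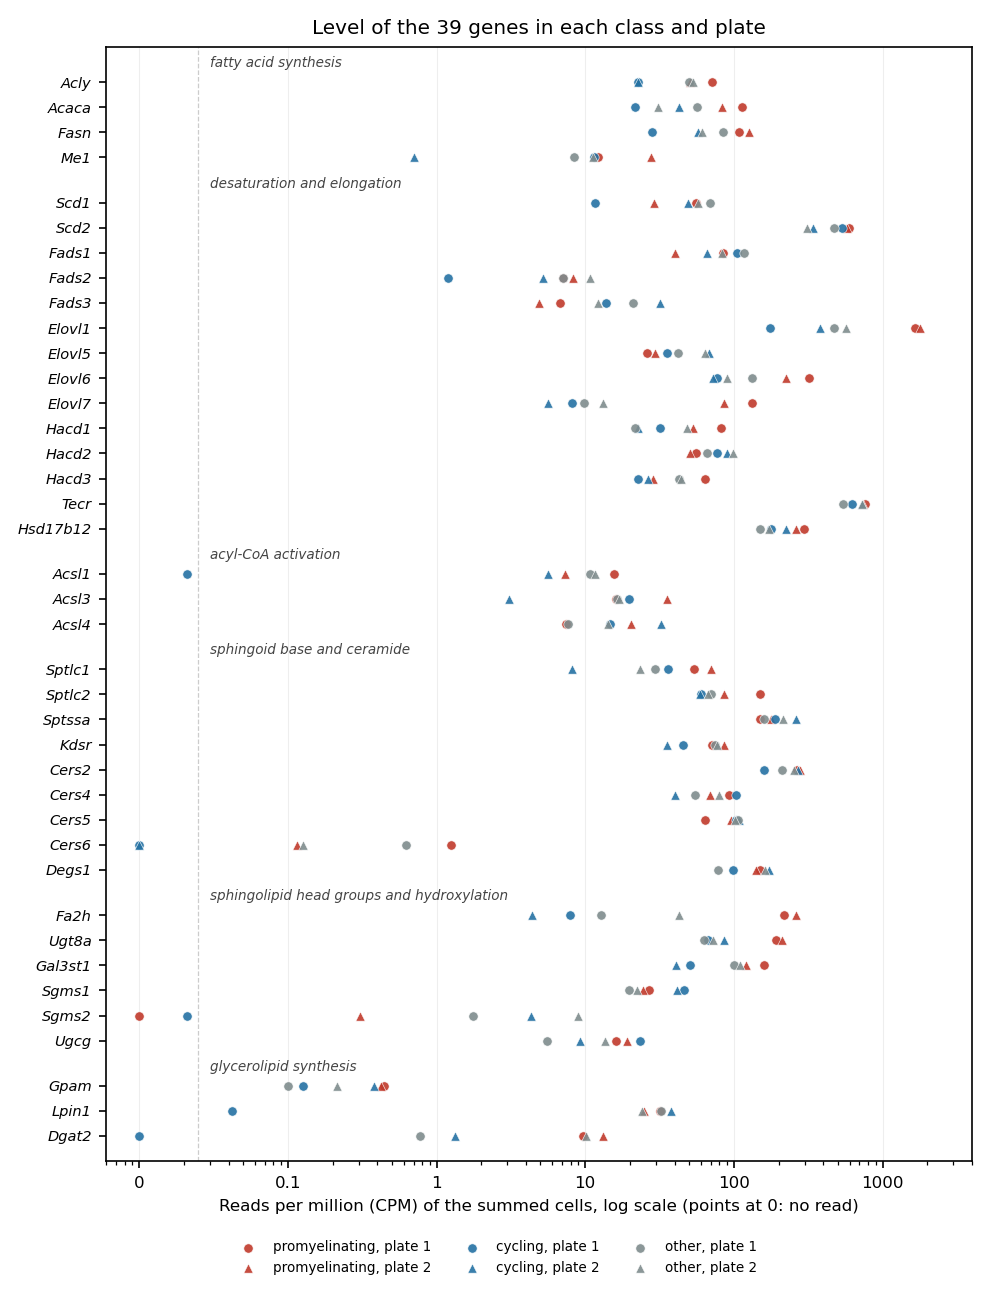
Level of each of the 39 genes, by role. The x axis is the CPM of the summed cells on a log scale, with points at 0 for sums without a read; red, blue and grey are promyelinating, cycling and other cells, circles plate 1 and triangles plate 2. The red points of Elovl1 (1644 and 1786 CPM), Elovl7 (133 and 85.9 CPM) and Fa2h (217 and 262 CPM) stand clear of the other 4 points.

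In the edgeR test over all 13289 genes, in which each class and plate was 1 sum, 4 of the 39 genes (10.3%) were higher in promyelinating than in other cells at an adjusted p under 0.05, against 0.489% of all genes tested. They were Elovl1 and Elovl7, which lengthen fatty acids, Fa2h, which hydroxylates them, and Ugt8a, which adds galactose to ceramide. None of the 39 was lower, against 1.27% of all genes. Because the list was chosen with earlier results of these data known, these shares and those of the next comparisons are descriptions and no independent test of the list. The median log2 fold change of the 39 was 0.44, and that of all genes tested was -0.07. In 19 of the 39, both promyelinating sums lay above both sums of the other cells (16.4% of all genes), and in 6 they lay below (28.1%).

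In promyelinating against cycling cells, 6 of the 39 were higher, the same 4 genes with Elovl6 and Gal3st1, and 0 were lower, against 2.09% and 3.75% of all genes tested. The median log2 fold change was 0.87 for the list and -0.02 for all genes. Both promyelinating sums lay above both cycling sums in 23 of the 39 (24.6% of all genes) and below in 6 (23.1%). In cycling against other cells, 0 of the 39 passed the test in either direction in edgeR, where 0.865% of all genes were higher and 0.105% lower. Here 5 of the 39 (12.8%) had an unadjusted p under 0.05, near the 9.99% of all genes, and DESeq2 called 1 of the 39, Fa2h, lower in cycling cells, where it called 2.72% of all genes lower. The median of the list was -0.22 and that of all genes -0.07, with both cycling sums above both others in 3 of the 39 (14.9% of all genes) and below in 14 (28.7%). The comparisons share sums, so their calls are not independent of each other.

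**Figure D2:**
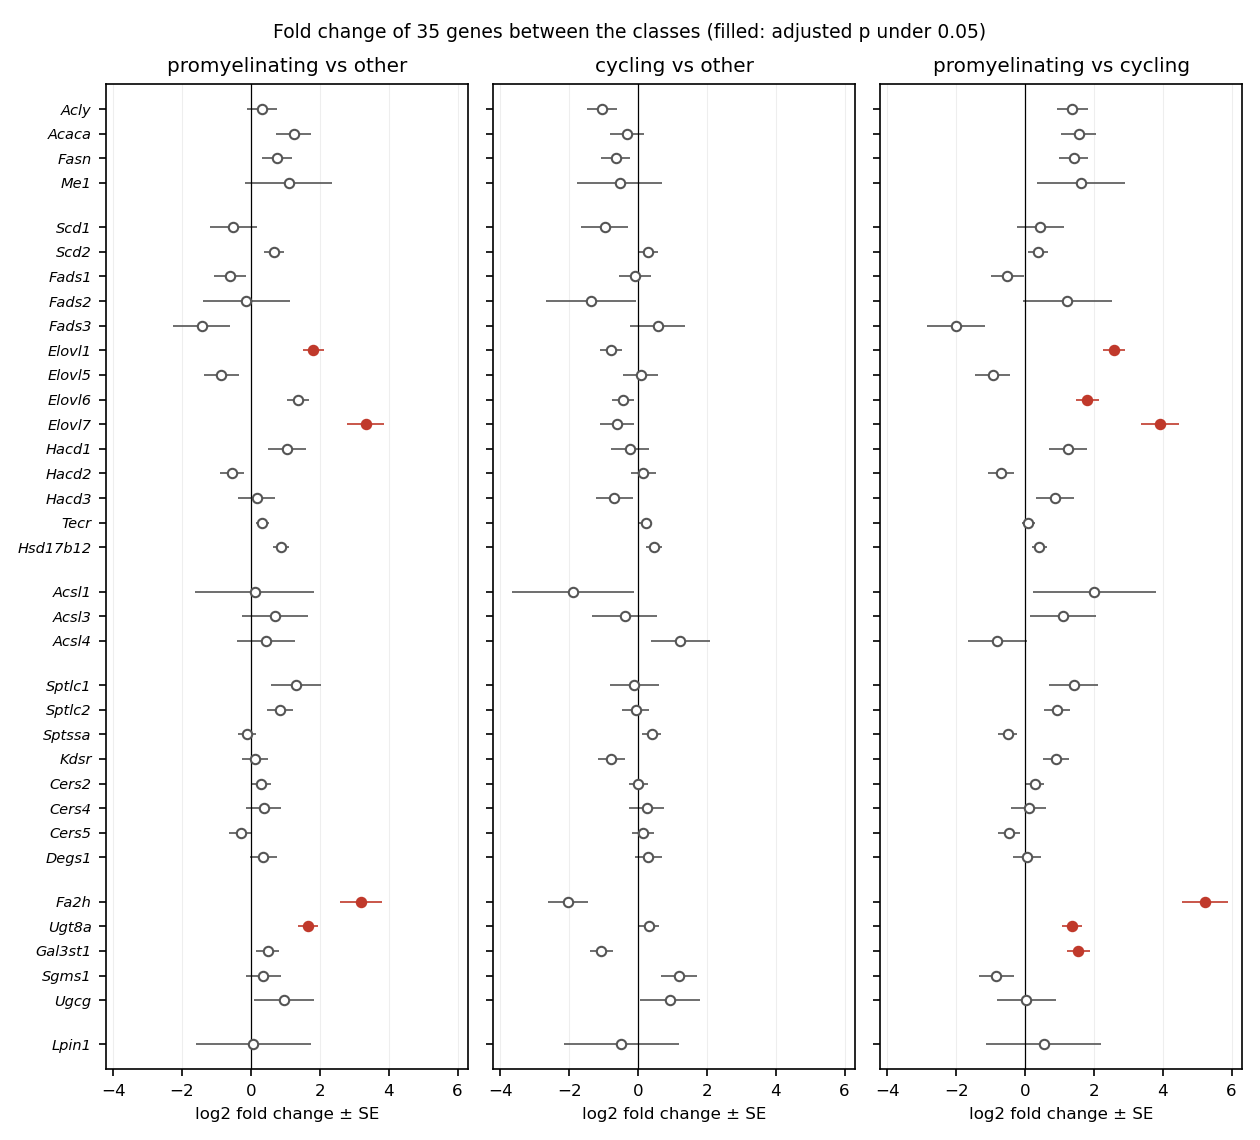
Log2 fold change (x axis) of 35 of the 39 genes in each comparison, with bars of 1 SE from edgeR; filled red points passed an adjusted p under 0.05. Cers6, Sgms2, Gpam and Dgat2, the 4 genes with the fewest reads (121 to 3115 over the 6 sums), are left out, and filled points appear to the right of 0 in the first and last panels and nowhere in the middle one.

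The elongases of very long and long chains differed from each other. Elovl1 (ENSMUSG00000006390, chromosome 4, 118428093 to 118432953, GRCm38), which extends saturated acyl chains to the lengths found in myelin sphingolipids, was at 1644 and 1786 CPM in promyelinating cells of plates 1 and 2, at 176 and 381 CPM in cycling cells and at 469 and 568 CPM in other cells. Both promyelinating sums were the highest, and cycling sums lay below those of other cells on both plates. The log2 fold change was 1.81 (SE 0.31, adjusted p = 0.0282) against other cells and 2.58 (SE 0.32, adjusted p = 0.00287) against cycling cells. Against cycling cells the log2 ratio was 3.22 on plate 1 and 2.23 on plate 2. Its exons overlap those of Cdc20, a gene of dividing cells on the opposite strand, over 53 of 2726 bases. Cdc20 was at 936 and 1127 CPM in cycling cells and at 17.8 and 15.4 CPM in promyelinating cells, the reverse of Elovl1.

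Elovl7 (ENSMUSG00000021696, chromosome 13, 108214404 to 108285683), another elongase with activity on saturated chains, had the steepest change among the elongases. It was at 133 and 85.9 CPM in promyelinating, 8.09 and 5.66 in cycling and 9.84 and 13.2 CPM in other cells, so the promyelinating sums stood well apart. Its log2 fold change was 3.33 (SE 0.53, adjusted p = 0.0191) against other cells and 3.93 (SE 0.55, adjusted p = 0.00461) against cycling cells. The plates gave log2 ratios of 3.75 and 2.70 against other cells. Reads of Elovl7 were found in 54.2% and 36.7% of promyelinating cells and in 4.57% and 7.37% of other cells, and 3 cells of each plate held 32.9% and 54.3% of the reads of the promyelinating class and 73.6% and 68.7% of those of other cells.

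Elovl6 (ENSMUSG00000041220, chromosome 3, 129532355 to 129638495), which turns palmitate into stearate, the acyl chain that very long chains start from, was at 321 and 224 CPM in promyelinating, 77.2 and 72.5 in cycling and 132 and 89.8 CPM in other cells. The promyelinating sums did not overlap with either class. Against cycling cells the log2 fold change was 1.81 (SE 0.33, adjusted p = 0.0157). Against other cells it was 1.37 (SE 0.32) and did not pass the test (adjusted p = 0.0967), while with the plate as a block it did (adjusted p = 0.0374); over all fits its adjusted p ranged from 0.00106 to 0.124. Elovl5, the elongase of polyunsaturated chains, was at 25.9 and 29.3 CPM in promyelinating and at 42.0 and 64.3 CPM in other cells (log2 fold change -0.86, SE 0.50, adjusted p = 0.603).

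The other 3 steps of each elongation round are carried by enzymes that the elongases share, and none passed the edgeR test in any comparison. Limma called Hacd1, Hsd17b12 and Tecr higher in promyelinating than in other cells (7.43% of all genes) and Hacd1 higher than in cycling cells (9.77%). DESeq2 called Hsd17b12 against other cells, where it called 2.53% of all genes higher. Tecr (ENSMUSG00000031708), the reductase that ends the round, was at 763 and 734 CPM in promyelinating, 621 and 726 in cycling and 540 and 723 CPM in other cells, with a log2 fold change of 0.33 (SE 0.19, adjusted p = 0.608) in promyelinating against other cells. Hsd17b12 (ENSMUSG00000027195), the ketoreductase, was at 296 and 262 CPM, 179 and 225 CPM, and 150 and 172 CPM in the same order of classes. Its log2 fold change against other cells was 0.87 (SE 0.23, adjusted p = 0.148), and the promyelinating sums were above the others on both plates. Of the dehydratases, Hacd1 had a log2 fold change of 1.04 (adjusted p = 0.557) and Hacd2 of -0.55 (adjusted p = 0.666) against other cells. Hacd3 lay between 22.8 and 63.6 CPM over all 6 sums.

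The desaturases showed no call in edgeR. Limma called Scd2 higher in promyelinating than in other cells (adjusted p = 0.0158), where it called 7.43% of all genes higher. Scd2 (ENSMUSG00000025203), the main stearoyl-CoA desaturase of the nervous system, was at 596 and 580 CPM in promyelinating, 530 and 340 in cycling and 469 and 309 CPM in other cells, so that promyelinating sums were the highest but the cycling sum of plate 1 came close (log2 fold change against other cells 0.67, SE 0.29, adjusted p = 0.453). Scd1 was far lower, from 11.7 to 69.4 CPM, with both promyelinating sums below both sums of other cells. Fads1 and Fads2, which introduce double bonds into polyunsaturated chains, and Fads3 of the same family had log2 fold changes of -0.60, -0.13 and -1.43 against other cells, none with an adjusted p under 0.598.

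The 4 enzymes that make palmitate and supply it had fold changes above 0 in promyelinating cells, and none passed the edgeR test over 13289 genes. Acly, which releases acetyl-CoA from citrate, Acaca, which carboxylates it, Fasn, the synthase, and Me1, a source of NADPH, had log2 fold changes of 0.32, 1.24, 0.76 and 1.09 in promyelinating against other cells, with adjusted p between 0.413 and 0.908. Against cycling cells the 4 values were 1.37, 1.56, 1.41 and 1.63, with adjusted p from 0.111 to 0.514. For each gene both promyelinating sums lay above both cycling sums, which held for 24.6% of all genes. Me1 differed little from cycling cells on plate 1 (12.1 against 11.4 CPM), and 3 cells of each plate held 82.0% and 97.0% of its promyelinating reads. Acly was at 50.8 CPM in promyelinating and 53.4 CPM in other cells of plate 2. Acaca, for example, was at 113 and 83.0 CPM in promyelinating, 21.7 and 42.9 in cycling and 56.3 and 31.0 CPM in other cells. DESeq2 called Acaca, Acly and Fasn higher in promyelinating than in cycling cells, where it called 7.62% of all genes higher, and limma called the same 3 there (9.77% of all genes) and Acaca and Fasn against other cells (7.43%). Of the acyl-CoA synthetases, Acsl1, Acsl3 and Acsl4 stayed at or below 35.3 CPM in every sum, with no call.

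Among the enzymes of the galactolipid branch, Fa2h (ENSMUSG00000033579, chromosome 8, 111345135 to 111393824), the fatty acid 2-hydroxylase, had the largest change against cycling cells of all members with reads in every sum. It was at 217 and 262 CPM in promyelinating, 7.90 and 4.39 in cycling and 12.8 and 42.9 CPM in other cells. The promyelinating sums stood apart, and the other cells of plate 2 held more than those of plate 1. The log2 fold change was 3.19 (SE 0.60, adjusted p = 0.0407) against other cells and 5.22 (SE 0.66, adjusted p = 0.00310) against cycling cells. The log2 ratio to other cells was 4.08 on plate 1 and 2.61 on plate 2. Restricted to cells that had 2500 genes or more, it no longer passed (2.81 on the log2 scale, adjusted p = 0.0870, in a range over all fits from 1.28e-06 to 0.0870).

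At least 50 CPM of Fa2h were found in 45 of 59 and 47 of 60 promyelinating cells, in 2 of 53 and 2 of 57 cycling cells, and in 15 of 175 and 25 of 217 other cells. Cells without Ncmap at the gate thus included some above this level of Fa2h, 8.57% and 11.5% of the other cells. In 3 cells of each plate lay 57.5% and 55% of the Fa2h reads of other cells and 18.5% and 23.4% of those of promyelinating cells.

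Ugt8a (ENSMUSG00000032854, chromosome 3, 125865271 to 125938619), the galactosyltransferase that makes galactosylceramide, was at 193 and 212 CPM in promyelinating, 67.1 and 85.9 in cycling and 63.0 and 72.2 CPM in other cells. Cycling and other cells overlapped, and both lay below promyelinating cells on both plates, where 3 cells held 23.9% and 54.1% of the promyelinating reads. The log2 fold change was 1.66 (SE 0.30, adjusted p = 0.030) against other cells and 1.36 (SE 0.29, adjusted p = 0.0329) against cycling cells. Restricted in the same way, the call against other cells was lost (1.63 on the log2 scale, adjusted p = 0.0658, in a range over all fits from 3.11e-07 to 0.0658).

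Gal3st1 (ENSMUSG00000049721, chromosome 11, 3983636 to 3999326), which sulfates galactosylceramide to sulfatide, differed in pattern. It was at 159 and 120 CPM in promyelinating, 50.8 and 41.1 in cycling and 99.9 and 110 CPM in other cells. In the sums, other cells lay just under promyelinating cells (log2 fold change 0.49, SE 0.33, adjusted p = 0.669, edgeR), and cycling cells lay under both. Against cycling cells the log2 fold change was 1.55 (SE 0.33, adjusted p = 0.0325). It missed the threshold there in cells that had 2500 genes or more (1.56 on the log2 scale, adjusted p = 0.0504, in a range over all fits from 0.000105 to 0.0504). Limma called Gal3st1 higher in promyelinating than in other cells (adjusted p = 0.0142), where it called 7.43% of all genes higher. Reads of Gal3st1 were found in 66.1% and 68.3% of promyelinating and in 42.9% and 40.6% of other cells.

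The branches from ceramide to other head groups were low and had no call in edgeR. Sgms1, a sphingomyelin synthase, was at 26.8 and 24.5 CPM in promyelinating, 46.2 and 41.7 in cycling and 19.7 and 22.4 CPM in other cells, with the highest sums in cycling cells. There 3 cells of each plate held 83.7% and 61.1% of its reads, and it was read in 20.8% and 24.6% of cycling, 42.4% and 43.3% of promyelinating and 20.6% and 19.4% of other cells. Limma, which works on single cells' log values averaged per plate, called it higher in promyelinating than in other cells (adjusted p = 0.0421, 7.43% of all genes). Its log2 fold change in cycling against other cells was 1.19 (SE 0.52, adjusted p = 0.499). Ugcg, which adds glucose to ceramide, lay at or below 23.5 CPM. Sgms2, the other sphingomyelin synthase, lay between 0 and 8.93 CPM.

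The enzymes that make the sphingoid base and ceramide had no call in the edgeR test over 13289 genes. Limma called Cers2, Sptlc1 and Sptlc2 higher in promyelinating than in other cells, where it called 7.43% of all genes higher. Against cycling cells it called them and Kdsr (9.77% of all genes), and thinned cells in edgeR gave the call of Kdsr too (3.86%). Sptssa (ENSMUSG00000044408), a small subunit of serine palmitoyltransferase, was at 149 and 179 CPM in promyelinating, 188 and 262 in cycling and 160 and 214 CPM in other cells. Both promyelinating sums lay below both cycling sums (log2 fold change -0.50, SE 0.27, adjusted p = 0.337) and overlapped those of other cells (log2 fold change in promyelinating against other cells -0.11, SE 0.27, adjusted p = 0.959). The catalytic subunits Sptlc1 and Sptlc2 had log2 fold changes of 1.31 (adjusted p = 0.583) and 0.85 (adjusted p = 0.457) against other cells, with both promyelinating sums above both others. In promyelinating cells, 3 cells of each plate held 61.4% and 80.4% of the reads of Sptlc1 and 38.7% and 56.2% of those of Sptlc2. Kdsr, which reduces the first product, and Degs1, the desaturase that completes ceramide, had log2 fold changes of 0.12 and 0.36 against other cells. Among the ceramide synthases, Cers2, which uses very long acyl chains, was at 264 and 277 CPM in promyelinating, 160 and 269 in cycling and 212 and 252 CPM in other cells (log2 fold change against other cells 0.30, SE 0.27, adjusted p = 0.812). Cers4 and Cers5 had 0.37 and -0.30. Cers6 was hardly read, with at most 1.25 CPM and no read in either cycling sum. It was at 1.25 and 0.115 CPM in promyelinating cells, in reads of 2 cells on plate 1 and 1 on plate 2, so no fold is given. With Cers6 at the bound that 3 reads over the cycling cells allow, which covers counting error only, the median of the list was again 0.87.

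The 3 genes of glycerolipid synthesis had no call. Gpam, the acyltransferase of the first step, stayed at or below 0.441 CPM and Dgat2, which makes triglyceride, at or below 13.1 CPM, with no read in the cycling sum of plate 1. Lpin1, a phosphatidate phosphatase, was between 24.1 and 37.9 CPM in 5 sums and at 0.0421 CPM in cycling cells of plate 1.

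Levels can be compared between genes only per length, here as TPM, in which reads are divided by the length of the union of annotated exons and each sum is brought to the same total. By the mean over the 6 sums the 5 highest were Tecr (769 TPM), Elovl1 (750), Sptssa (312), Hsd17b12 (218) and Scd2 (211). Elovl1 took the first place in promyelinating cells, at 1527 ± 98.2 TPM (SD, n = 2 plates) against 829 ± 17.7 TPM for Tecr, and in other cells it was at 469 ± 70.1 TPM against 712 ± 156 TPM for Tecr. Hsd17b12 and Scd2, at 281 ± 23.2 and 261 ± 3.63 TPM in promyelinating cells, did not differ beyond their spread, and neither did Sptssa at 263 ± 35.7 TPM. Fa2h, at 193 ± 27.1 TPM, stood near Cers2 at 178 ± 6.97 TPM and Gal3st1 at 166 ± 31.2 TPM in promyelinating cells, and at 5.07 ± 1.98 TPM in cycling cells. Elovl6 (103 ± 25.2 TPM) and Ugt8a (108 ± 7.64 TPM) did not differ beyond their spread in promyelinating cells, and Elovl7 was at 66.0 ± 19.7 TPM.

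In single cells the difference was one of detection as well as of level. After each cell was thinned to 50000 reads, which left out 5 of the 621 cells, Fa2h was read in 86.4% and 84.5% of promyelinating cells, 5.77% and 8.77% of cycling cells and 10.9% and 14% of other cells. Before thinning the values were 91.5% and 93.3%, 5.66% and 12.3%, and 12% and 17.5%. Elovl1 was read in 94.9% and 96.6% of thinned promyelinating cells and also in 67.4% and 62.8% of other cells, so that the classes differed more by level. Elovl6 was read in 66.1% and 65.5% against 29.1% and 30.7%. Sptssa was read in 69.5% and 72.4% against 61.1% and 64.7%.

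**Figure D3:**
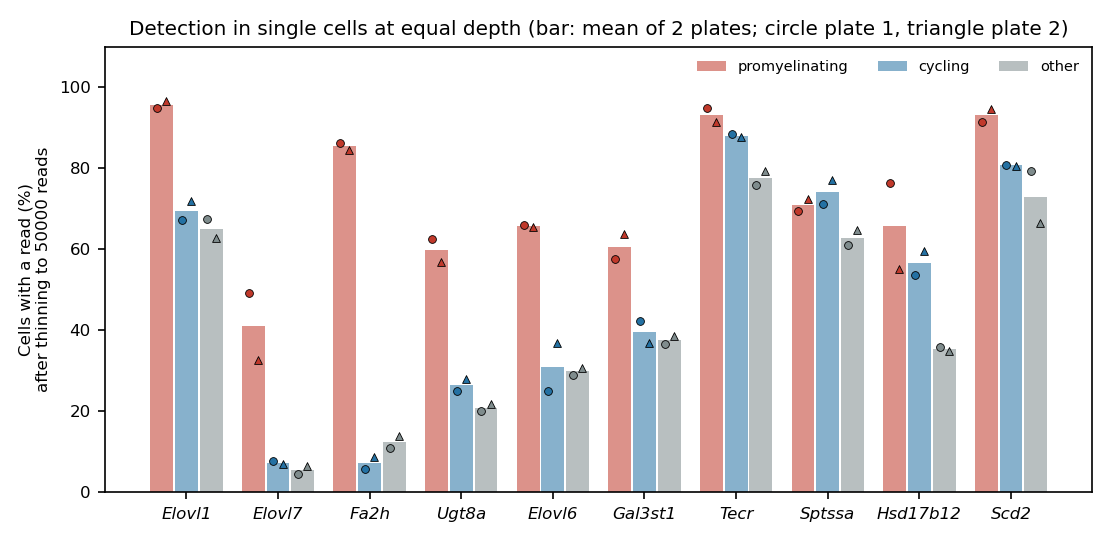
Percent of cells with a read of 10 genes (y axis) after thinning to 50000 reads, by class. Bars are means of the 2 plates, circles plate 1 and triangles plate 2; Fa2h was read in 86.4% and 84.5% of promyelinating cells and at most 14% of the others, while Tecr was read in most cells of every class.

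The 4 genes higher than in other cells were read together in 27 of 59 and 15 of 60 promyelinating cells (45.8% and 25%). They were picked by their calls in these same cells, so a higher share in this class follows from the choice and is no further test. The 4 genes were read together in 0 of 53 and 0 of 57 cycling cells, which allows shares of up to 5.66% and 5.26%. Among other cells this was so in 0 of 175 of plate 1, which allows up to 1.71%, and in 2 of 217 of plate 2. No promyelinating cell lacked all 4, which allows up to 5.08% on plate 1 and 5% on plate 2, while 3 and 6 cycling cells and 32 and 48 of the other cells did. In cells thinned to 50000 reads, all 4 were read in 30.5% and 20.7% of promyelinating cells. Then 1.69% and 0% of promyelinating, 25% and 24.6% of cycling and 21.7% and 27% of other cells lacked all 4. These limits cover counting error only. Of the 39 genes, the median promyelinating cell had reads of 19 on plate 1 and 16 on plate 2, and the median other cell of 11 on each plate.

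The score of a cell, the mean of log2(CPM + 1) over the 39 genes, averaged 3.23 and 3.03 in promyelinating cells, 2.04 and 2.18 in cycling cells and 1.92 and 2.00 in other cells of plates 1 and 2. Promyelinating cells ranged from 1.29 to 4.81 and other cells from 0.0952 to 3.57, so single cells of the classes overlapped. The difference to other cells was 1.31 and 1.03 on the 2 plates, where the same mean over all 13289 tested genes differed by 0.34 and 0.27. Between cycling and other cells the score differed by 0.13 and 0.18, less than the 0.29 and 0.24 of all genes.

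The score moved with the number of genes detected, in which the classes also differ. Within promyelinating cells the rank correlation of score and detected genes was 0.65 over 59 cells of plate 1 and 0.75 over 60 of plate 2, as a description of cells that share a library plate. Among cells with 3000 to 4000 detected genes, a window chosen after the data were seen, the score was 3.31 and 2.97 in 23 and 32 promyelinating cells, 2.40 and 2.49 in 60 and 70 other cells, and 2.05 and 2.38 in 20 and 26 cycling cells. The difference between promyelinating and other cells was then 0.92 and 0.49, and that between cycling and other cells turned negative, at -0.34 and -0.11. The window did not make the gene numbers equal. Their medians within it were 3633 and 3562 in promyelinating, 3757 and 3571 in cycling and 3344 and 3249 in other cells.

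**Figure D4:**
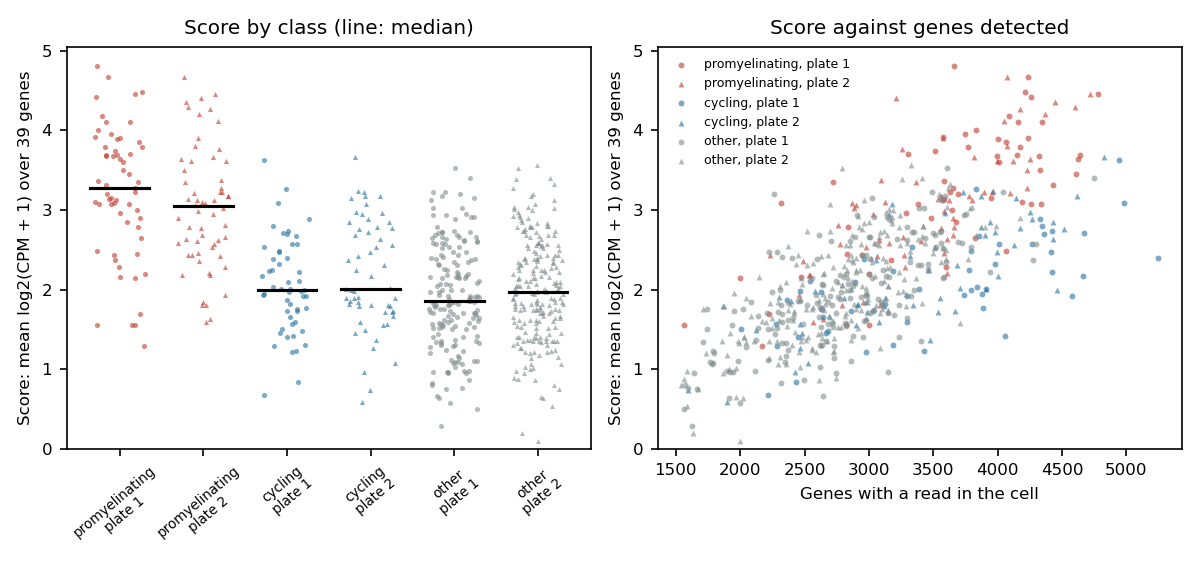
Left, the score of each cell (y axis, mean log2(CPM + 1) over the 39 genes) by class and plate, with black lines at the medians, 3.28 and 3.04 in promyelinating and 1.86 and 1.97 in other cells. Right, the same score against the number of genes detected in the cell; it rises with that number in every class, and promyelinating cells lie mostly above the others at the same number.

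Within the promyelinating class the score also followed Mbp. Its rank correlation with Mbp was 0.60 on plate 1 and 0.69 on plate 2. Single genes were more loosely tied. Fa2h correlated with Ncmap at 0.37 and 0.42 and with Ugt8a at 0.07 and 0.18, and Elovl1 with Fa2h at 0.20 and 0.40. These are descriptions over 59 and 60 cells of 1 pool each, and values per cell rest on few reads for the lower genes.

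Other genes of lipid metabolism were read from lists of their pathways and tested with edgeR. Of 22 tested genes of fatty acid and lipid synthesis outside the 39, 0 passed the test in promyelinating against other cells, and their median log2 fold change was 0.33. Of 15 other genes of sphingolipid synthesis 0 passed, with a median of 0.57, and of 14 genes of sphingolipid breakdown 0 passed, with a median of -0.06. Of 21 genes of fatty acid oxidation 0 passed, with a median of 0.31. Of 19 cholesterol synthesis genes 0 passed, and all 19 had a log2 fold change above 0, with a median of 1.14 and a range from 0.03 to 2.04. Of all 13289 genes tested, 6217 were above 0. The median over the 39 genes, given above, was 0.44.

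Carriers of fatty acids gave 2 calls in opposite directions among 9 tested. Pmp2, a fatty acid binding protein of peripheral myelin, was at 2265 and 2175 CPM in promyelinating, 29.3 and 13.4 in cycling and 57.2 and 71.8 CPM in other cells (log2 fold change against other cells 5.19, SE 0.40, adjusted p = 0.000776). Dbi, which binds acyl-CoA, was at 856 and 912 CPM in promyelinating, 3331 and 3038 in cycling and 2931 and 2584 CPM in other cells (log2 fold change -1.56, SE 0.16, adjusted p = 0.00244). Both had no overlap between promyelinating and other cells, and the fold change of Pmp2 was larger than that of any of the 39.

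Of 15 tested regulators of lipogenic transcription, 1 was lower and 0 were higher in promyelinating than in other cells. Mlxip, which pairs with Mlx and responds to glucose metabolites, was at 27.3 and 31.5 CPM in promyelinating and 109 and 92.8 CPM in other cells (log2 fold change -1.71, SE 0.34, adjusted p = 0.0483). Srebf1 and Srebf2, named after their values were seen because they encode the regulators that bind sterol regulatory elements, had log2 fold changes of 0.75 (SE 0.71, adjusted p = 0.822) and 0.12 (SE 0.63, adjusted p = 0.988). Srebf1 lay between 16 and 69.5 CPM and Srebf2 between 13.2 and 34.8 CPM over the 6 sums, with the classes overlapping.

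Against cycling cells more of these genes passed the test, and those given here are named after their values were seen. More of all genes passed there too, 2.09% higher and 3.75% lower, against 0.489% and 1.27% in the comparison with other cells. Acss2, which makes acetyl-CoA from acetate, and Agpat1, an acyltransferase of phosphatidate synthesis, were higher in promyelinating cells, with log2 fold changes of 5.87 (adjusted p = 0.00936) and 1.03 (adjusted p = 0.0237). So were Fdft1 and Hmgcs1 of cholesterol synthesis (1.88 and 2.40, adjusted p = 0.0279 and 0.00909) and Hadh and Acaa2 of fatty acid oxidation (1.43 and 1.09, adjusted p = 0.0423 and 0.0189). Lower were Sphk1, which phosphorylates sphingosine (-7.75, adjusted p = 0.0265), and the nuclear receptor gene Rxrg (-3.28, adjusted p = 0.0283), and Mlxip was lower here too (-2.09, adjusted p = 0.00936). Sphk1 was at 0.249 and 0 CPM in promyelinating and at 32.0 and 20.3 CPM in cycling cells.

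Of 8 genes of the response to tissue dissociation, 7 had both promyelinating sums below both sums of other cells (28.1% of all genes). The 8 genes summed to 2205 and 2418 CPM in promyelinating, 4726 and 7160 in cycling and 5842 and 6380 CPM in other cells. Most of this was Fos, at 1871 and 1961, 3623 and 5469, and 4386 and 4560 CPM in the same order. Atf3, Ier2, Fos and Egr1 were lower in promyelinating than in other cells at an adjusted p under 0.05 (1.27% of all genes). Hspa1a and Hspa1b had log2 fold changes of -0.27 and 0.57 (adjusted p = 0.881 and 0.852, edgeR). The part of the dissociation genes, and that of the higher number of detected genes, in the differences of the 39 genes was not tested beyond the thinning and the window of detected genes given above.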

How the data were processed

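Single SCs of 2 plates were sequenced with Smart-seq2, a full-length protocol without molecular identifiers. The deposited table holds raw counts for each gene in each well, which the authors made with featureCounts and did not normalise. For the aligner, the labels name STAR 2.6.1c and build GRCm38.p5, whereas the methods of the study name another STAR version and a human assembly, and all gene IDs are mouse. Strand use is not given in the sources used here, so genes that overlap are uncertain. Of the 39 genes, 15 overlap another gene annotated on the opposite strand and 12 another on their own. Symbols, positions and exon lengths came from GENCODE M21 (GRCm38), where 25587 of 25700 IDs matched.

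The members and lists were chosen with earlier results of these data known. Wells under 1500 genes were set aside (122 of 743), no doublet caller was run, and whether doublets or wells had been left out before deposit is not stated. No 2 wells held identical values. Single cells held between 26673 and 2291613 reads. Cells are not replicates, so counts were summed per plate and class (6 sums) and tested with edgeR 4.0.16 (TMM, filterByExpr, robust glmQLFit, glmQLFTest), with all classes in 1 fit and without Mki67, Top2a and Ncmap. P-values were adjusted by Benjamini-Hochberg over 13289 genes, all 39 members passed the filter, and a call is an adjusted p under 0.05. The SE of a fold change was its size divided by the square root of F. With 2 plates per class, p-values measure the spread between these pools. The sums of 1 plate come from the same animals, and the deviations between plates correlated across 3708 genes at 0.0986, 0.149 and 0.212 for the 3 pairs of classes.

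Alternatives were the plate as a block, DESeq2 1.42.0, RLE size factors, limma 3.58.1 on plate means of log2(CPM + 1), genes of low counts kept, thinning to 50000 reads, cells of at least 1000 or 2500 genes, gates at 20 or 100 CPM, a pseudocount of 10 CPM for the score and each plate left out. The alternatives of left-out wells of plate 1 and of a window of detected genes were chosen after seeing the data. All genes are accounted for, with full values for those past the threshold in any comparison and for the 5 with the highest level per length. Genes outside the 39 were named, at most 4 a list, where they passed the threshold in promyelinating against other cells, and otherwise as stated in the text. The tests were tried on simulated counts first.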

Additional observations from a re-analysis of the deposited data

Results flagged for a closer look

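The 122 wells with fewer than 1500 detected genes, which enter no comparison, still held reads of the 39 genes. On plate 1 the 83 such wells had 29747 reads of them, 1767 CPM of their summed reads, against 3885 CPM in the cells kept. On plate 2 the 39 such wells had 16005 reads, 3884 CPM, against 4140 CPM in the cells kept. Reads were found for 33 of the 39 genes on plate 1 and 25 on plate 2. The cause was not tested.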

How the results depend on the processing

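The number of the 39 genes higher in promyelinating than in other cells moved from 4 to 2 with cells of 2500 genes or more and to 16 with limma on plate means of log2(CPM + 1), which called 7.43% of all genes higher, and the number higher than in cycling cells from 6 to 14 with limma (9.77% of all genes). Over all genes, edgeR called 65 higher and 169 lower in promyelinating than in other cells, against 988 and 212 with limma, 336 and 701 with DESeq2, 167 and 358 without the filter on low counts and 140 and 279 with thinned cells. Limma also put the median log2 fold change of all genes there at 0.15 rather than -0.07. In cycling against other cells these counts were 115 and 14, against 722 and 16, 441 and 361, 230 and 96, and 213 and 33. In promyelinating against cycling cells they were 278 and 499, against 1298 and 1209, 1013 and 1316, 524 and 773, and 434 and 701. In cycling against other cells, 1 gene rather than 0, Fa2h, was lower with DESeq2 and without the filter on low counts. The score difference between promyelinating and other cells, 1.17 as a mean of plates, fell to 0.66 with a pseudocount of 10 CPM and to 0.70 among cells with 3000 to 4000 detected genes, and that between promyelinating and cycling cells, 1.02, to 0.60 with that pseudocount. Between cycling and other cells it was 0.15 and became 0.06 with that pseudocount, 0.22 and 0.07 with cells of at least 1000 and 2500 genes, and -0.23 among cells with 3000 to 4000 genes. Single plates gave score differences from 1.03 to 1.31, from 0.13 to 0.18 and from 0.84 to 1.19. With 1 plate left out no count of calls could be had. Of 390 values of the 10 fully described genes under an alternative, 352 kept direction and call, 12 passed only under the alternative, 3 lost the call, 20 single-plate ratios differed from the fitted value by more than 1 SD, and 3 reversed, none of them called: Elovl7 to 0.09 in cycling against other cells and Sptssa to 0.34 in promyelinating against other cells with limma, and Ugt8a to -0.17 in cycling against other cells with cells of 2500 genes or more. The plate as a replicate block added the call of Elovl6 and changed no other of these calls. Without the 18 doubtful cells of plate 1 the counts were again 4, 0 and 6. The causes were not tested. Depth limits most the genes with the fewest reads over the 6 sums, Gpam (121) and Cers6 (192).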
